A study of Mus musculus with 12 samples.

Results

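The genes described here encode 34 proteins of the extracellular matrix of the lung: collagens, elastic fibre proteins, adhesive glycoproteins, proteoglycans, and the metalloproteinases and inhibitors that govern matrix turnover. They were found by gene symbol in the platform annotation, and the probe set with the highest mean over 12 arrays stood for each gene. Of the 34 genes, 32 had a named probe set, and Fbn1 and Spp1 were not analysed here. Col15a1 lay above the filter on low values (log2 4.85 on at least 3 arrays) on too few arrays, so 31 of the 11602 genes tested were matrix genes. The RNA came from lungs of wild-type mice on Affymetrix mouse arrays, and values are log2 intensities. Control animals received vehicle and were 8 to 10 weeks old, against 8 to 12 weeks in the other groups, so that in each comparison with control age and treatment cannot be told apart. The radiation group was studied 6 weeks after a single dose of 25 Gy, and the simvastatin group had 10 mg/kg by intraperitoneal injection 3 times a week for up to 6 weeks. The combined group had both. The dosing of the group given simvastatin alone is also worded around irradiation in its labels, and all 12 arrays carry a description as control tissue, so groups follow the other labels. Each group had 3 arrays, but the labels do not say whether they come from separate animals, and each p-value measures only the spread between the arrays used.

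Collagens are helices wound from several chains. The fibrillar kinds carry tension in airway and vessel walls, collagen IV forms the sheet under alveolar epithelium and capillaries, and elastic fibres give the lung its recoil. Fibroblasts, smooth muscle and endothelium make most of this material, metalloproteinases (MMPs) cut it and tissue inhibitors of metalloproteinases (TIMPs) restrain them. Late radiation injury of the lung is known for the build-up of fibrillar collagen. In RNA from whole lung, fewer cells of a type and less RNA per cell cannot be told apart.

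The arrays differed in ways that their labels do not give. Lung markers were high throughout: the surfactant gene Sftpc read 15.57 to 15.84 and the alveolar type 1 gene Ager 14.42 to 15.37. Simvastatin 1, simvastatin 3 and combined 3 were near-identical, with an SD of log2 differences of 0.111 to 0.118 over 10342 bright probe sets against 0.336 or more in the other 63 pairs. Simvastatin 1 and 3 were therefore averaged as 1 sample (n = 2 for simvastatin, n = 3 elsewhere), while combined 3 kept its own label. The tests below thus treat combined 3 as independent of the simvastatin sample that it nearly matches. Standard errors and p-values do not allow for this likeness in any comparison that uses both groups. Cdkn1a, the p53 target encoding p21, read 10.25, 10.69 and 13.01 on the control arrays, 13.36, 13.12 and 13.42 after radiation, 13.19, 13.17 and 11.18 in the combined group and 11.09, 13.36 and 11.11 in the simvastatin group. The libraries labelled control 3, combined 3 and simvastatin 2 thus went against their labels. For some of the genes below, results are given with and without them, and the other results include them. The labels give no sex. Xist, the RNA of the inactive X, read 2.45 on control 3 and 2.4998 on radiation 1 and 12.29 or more elsewhere, and the Y-linked Eif2s3y read 10.25 and 10.39 on those arrays and 3.46 or less elsewhere. Control 3 and radiation 1 thus had the expression of male and the other arrays of female lung, so the control and radiation groups each hold RNA of more than 1 animal. The part of sex in the matrix values was not tested, and values without these arrays are given where they bear on a result. In a principal component analysis of 45037 probe sets, the leading axis (41.9% of the variance) placed control 3 at -105, radiation 1 at -110 and radiation 2 at -141, and the other arrays from 15.1 to 117.

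Markers of tissues outside the lung parenchyma also varied between arrays, and their part in the matrix values was not tested. Skeletal muscle markers (10 of 12 measured, as the mean log2 level relative to the average of 12 arrays) stood at 1.67 to 3.34 in controls, -4.11 to 3.07 after radiation, -3.99 to 4.05 in the combined group and -4.40 to -3.93 with simvastatin. Squamous epithelium markers (8 of 10) ranged over -1.52 to 5.26, -3.20 to 2.53, -3.12 to 5.30 and -3.26 to -3.15 in the same groups, and brown fat markers (5 of 6) over -2.48 to 3.62, -1.81 to 0.68, -1.94 to 3.96 and -2.14 to -1.80. The squamous keratin Krt4 lay at 3.07 or less on radiation 2, radiation 3, combined 3 and every simvastatin array, below the filter on low values. Of 10 cartilage markers 1 was measured. On control 1, markers of alveolar type 1 cells (8 of 8), alveolar type 2 cells (7 of 8) and endothelium (10 of 10) stood at -1.06, -0.77 and -0.94, beside thymocyte markers (4 of 10) at 5.04.

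**Figure D1:**
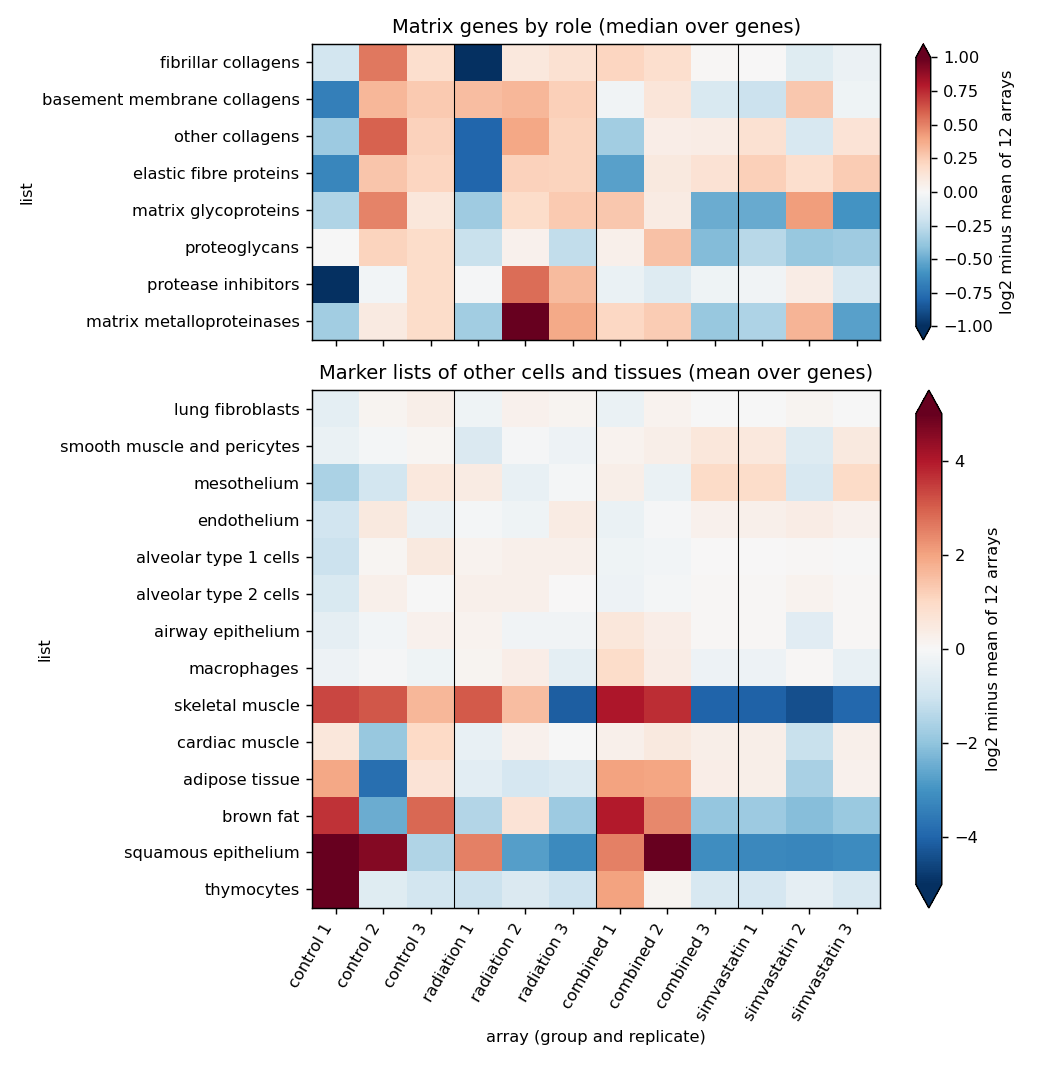
Upper panel: median log2 level of the matrix genes of each role on each array, relative to each gene's mean over 12 arrays. Lower panel: mean level of marker lists of other cells and tissues on the same arrays, on a wider colour scale. Fibrillar collagens are lowest on radiation 1 (-1.07), protease inhibitors are lowest on control 1 (-1.07), and skeletal muscle markers lie at -3.93 or lower on radiation 3, combined 3 and the simvastatin arrays.

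The promoters of some of the genes that the results turn on are shown here, because those of Col4a1 and Col4a2 overlap. RefSeq windows on GRCm38.p6, from 250 bases before to 50 after the start site, matched 25 of the 34 genes. Col4a1 (chr8:11312777-11313076, minus strand) and Col4a2 (chr8:11312555-11312854, plus strand) lie head to head, and capitals mark the 78 bases that both windows hold, read from opposite strands. In Col1a2 (chr6:4505368-4505667, plus strand), Timp3 (chr10:86300162-86300461, plus strand) and Mmp12 (chr9:7347124-7347423, plus strand, the downstream window of a pair) capitals mark matches to any of 4 motifs on either strand.
Col4a1: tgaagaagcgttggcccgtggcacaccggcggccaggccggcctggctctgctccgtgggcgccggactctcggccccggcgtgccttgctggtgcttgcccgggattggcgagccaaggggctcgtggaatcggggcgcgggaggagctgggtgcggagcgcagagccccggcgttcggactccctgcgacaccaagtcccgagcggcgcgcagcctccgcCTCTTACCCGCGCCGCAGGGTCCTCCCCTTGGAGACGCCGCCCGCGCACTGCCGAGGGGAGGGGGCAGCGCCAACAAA
Col4a2: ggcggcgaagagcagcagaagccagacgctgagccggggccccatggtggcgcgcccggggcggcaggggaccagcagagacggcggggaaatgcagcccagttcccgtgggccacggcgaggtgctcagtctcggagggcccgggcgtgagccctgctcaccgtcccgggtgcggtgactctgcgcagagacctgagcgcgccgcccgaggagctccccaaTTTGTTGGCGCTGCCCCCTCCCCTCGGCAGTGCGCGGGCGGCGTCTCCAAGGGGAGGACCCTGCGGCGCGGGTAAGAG
Col1a2: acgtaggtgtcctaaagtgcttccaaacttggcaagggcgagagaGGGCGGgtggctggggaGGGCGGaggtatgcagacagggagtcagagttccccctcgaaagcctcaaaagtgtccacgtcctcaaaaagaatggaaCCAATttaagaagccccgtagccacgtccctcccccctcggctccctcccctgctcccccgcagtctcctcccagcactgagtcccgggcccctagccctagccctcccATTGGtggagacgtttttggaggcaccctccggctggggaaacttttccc
Timp3: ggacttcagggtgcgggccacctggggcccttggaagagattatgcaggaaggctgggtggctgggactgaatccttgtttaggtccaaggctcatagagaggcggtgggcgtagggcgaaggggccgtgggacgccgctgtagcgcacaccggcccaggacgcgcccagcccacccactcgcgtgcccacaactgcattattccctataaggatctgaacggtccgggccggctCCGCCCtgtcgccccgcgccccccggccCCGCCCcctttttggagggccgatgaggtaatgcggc
Mmp12: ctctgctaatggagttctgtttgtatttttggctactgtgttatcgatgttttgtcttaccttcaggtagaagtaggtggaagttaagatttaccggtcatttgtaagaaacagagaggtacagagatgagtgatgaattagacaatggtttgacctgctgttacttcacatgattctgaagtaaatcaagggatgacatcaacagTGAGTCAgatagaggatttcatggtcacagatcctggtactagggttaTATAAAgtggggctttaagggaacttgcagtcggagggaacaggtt
The motifs were CCAAT (the CCAAT box, in 37.4% of 32851 windows of this length), GGGCGG (the GC box, 35.7%), TGANTCA (the AP-1 element, 7.81%) and TATAAA (the TATA box, 13.6%). Positions are counted from 1 at the 5′ end of a window. Col1a2 held CCAAT at 142 to 146 and, reversed, at 251 to 255, with GC boxes at 46 to 51 and 63 to 68. Timp3 held reversed GC boxes at 236 to 241 and 264 to 269. Mmp12 held TGANTCA at 207 to 213 and TATAAA at 255 to 260, and of the 25 genes only Mmp12 and Col6a1 had a TGANTCA match. No marked matches overlapped in these 3 windows, apart from TGANTCA, whose match reads on both strands. A match describes letters and is neither a binding site nor a cause.

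No matrix gene passed limma at an adjusted p of 0.05 over 11602 genes in any of the 5 comparisons. Over all genes the share called was also 0% each time, while 600, 518, 214, 327 and 377 genes had an unadjusted p under 0.05. Of 31 matrix genes, 2, 1, 1, 0 and 2 did in the same order (radiation against control, combined against radiation, simvastatin and then combined against control, and the interaction, which is the radiation effect with simvastatin minus that without). The median matrix gene differed by 0.00051, -0.049, 0.031, 0.0063 and 0.0071 in that order, and the median over all genes by 0.084, -0.092, -0.0023, 0.0039 and -0.088. Group membership held a median of 18.8% of a matrix gene's variance, against a median of 27.2% over all genes. The share ran from 0.43% for Col5a2 to 52.5% for Timp3. With so few arrays, random spread alone also places a share of the variance between groups. The size of that share was not computed, so these values do not show how much variance the treatments explained.

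**Figure D2:**
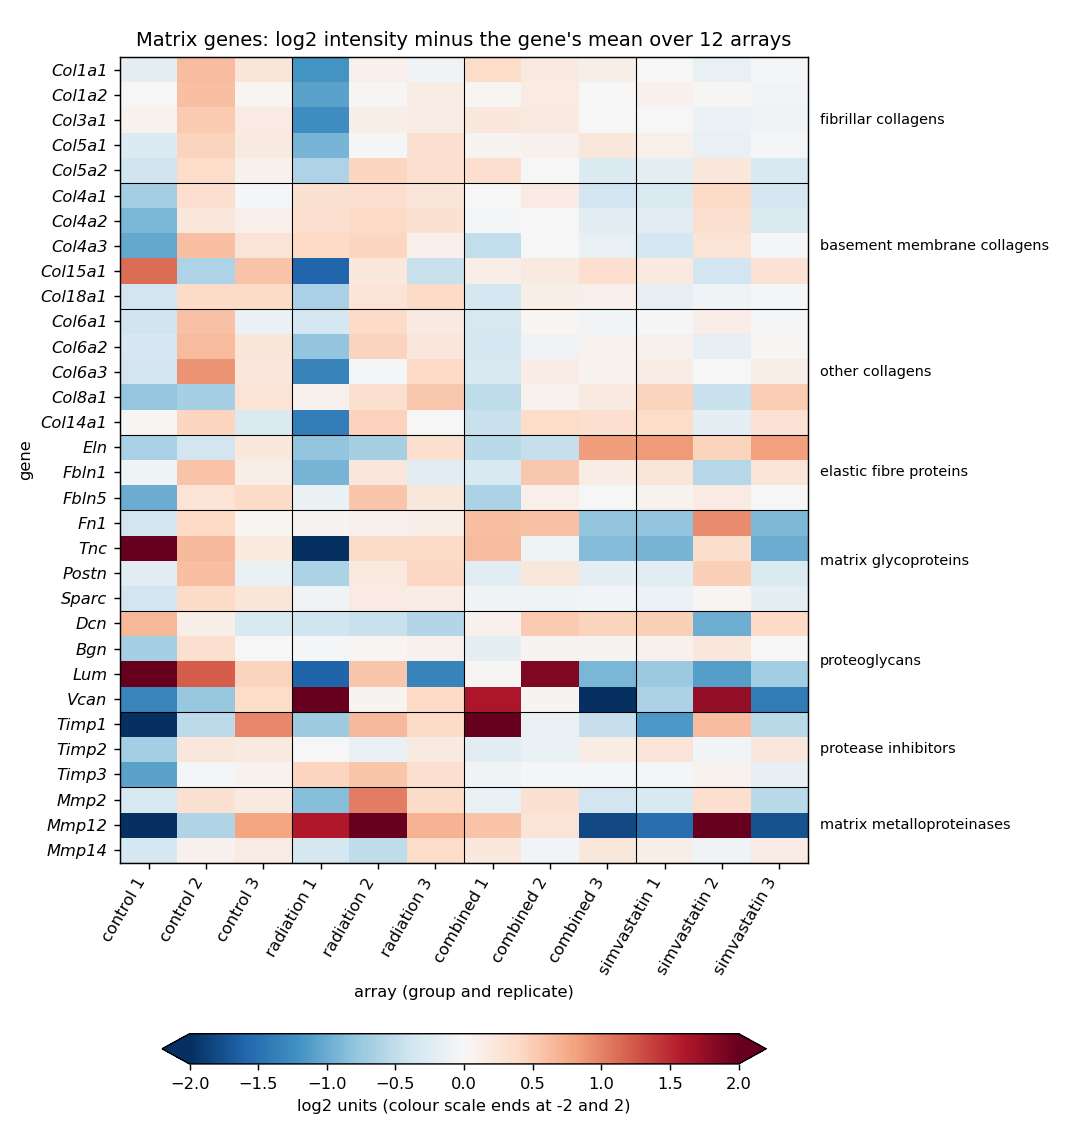
Log2 intensity of 32 matrix genes (rows, by role) on 12 arrays (columns), relative to each gene's own mean over the arrays. Red is above and blue below that mean. Radiation 1 is the lowest array for 16 of 32 genes (4.77% of all genes tested) and control 1 for 12 (35.1% of all genes). Control 2 is the highest array for 12 (6.54% of all genes).

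Single arrays set much of the pattern. Radiation 1 was the lowest array for 16 of 32 matrix genes, where it was lowest for 4.77% of all genes tested. Control 1 was lowest for 12 of 32, near its share of all genes (35.1%), and control 2 was highest for 12 of 32, against 6.54% of all genes. Radiation 1 is also an array of male expression, and the other such array, control 3, was lowest for 0 of 32. Without both, the median matrix gene was at 0.19 for radiation minus control (all genes 0.15) and -0.22 for combined minus radiation (all genes -0.085), with 23 and 8 of 31 above 0. Without control 1 alone, 6 of 31 matrix genes were above 0 for radiation minus control, against 52.7% of all genes, with a median of -0.23. The median matrix gene stood -0.62 from its own mean on radiation 1, -0.37 on control 1 and 0.37 on control 2, and between -0.050 and 0.25 on the other 9 arrays.

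Radiation minus control asked how 25 Gy altered the lung. TIMP3, which stays bound to the matrix, and the collagen IV chain COL4A2 were the genes of this list whose radiation arrays all lay above every control. Decorin, a proteoglycan that coats collagen fibrils, was the one whose radiation arrays all lay below. Fibrillar collagens were not above control on average: 4 of 5 had a negative difference, with a median of -0.51. Of 31 genes 2 stood apart upward and 1 downward, where 4.86% and 2.03% of all genes did, and 16 of 31 differences were above 0, against 60.4% of all genes. At an unadjusted p under 0.05, 1 matrix gene was higher and 1 lower, beside 4.21% and 0.965% of all genes.

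Combined minus radiation asked what simvastatin altered in irradiated lungs. The 3 tested collagen IV chains, Timp3 and the macrophage elastase gene Mmp12 lay lower on every combined array than on any radiation array. Col1a1 and Dcn lay higher on every one. These 5 genes apart downward and 2 upward compare with 13.5% and 3.7% of all genes, and 14 of 31 differences were above 0, against 37.4%. At an unadjusted p under 0.05, 1 gene was higher and 0 lower, beside 1.59% and 2.87% of all genes. Both comparisons use the same radiation arrays, so a gene that is high or low on them appears with opposite signs.

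**Figure D3:**
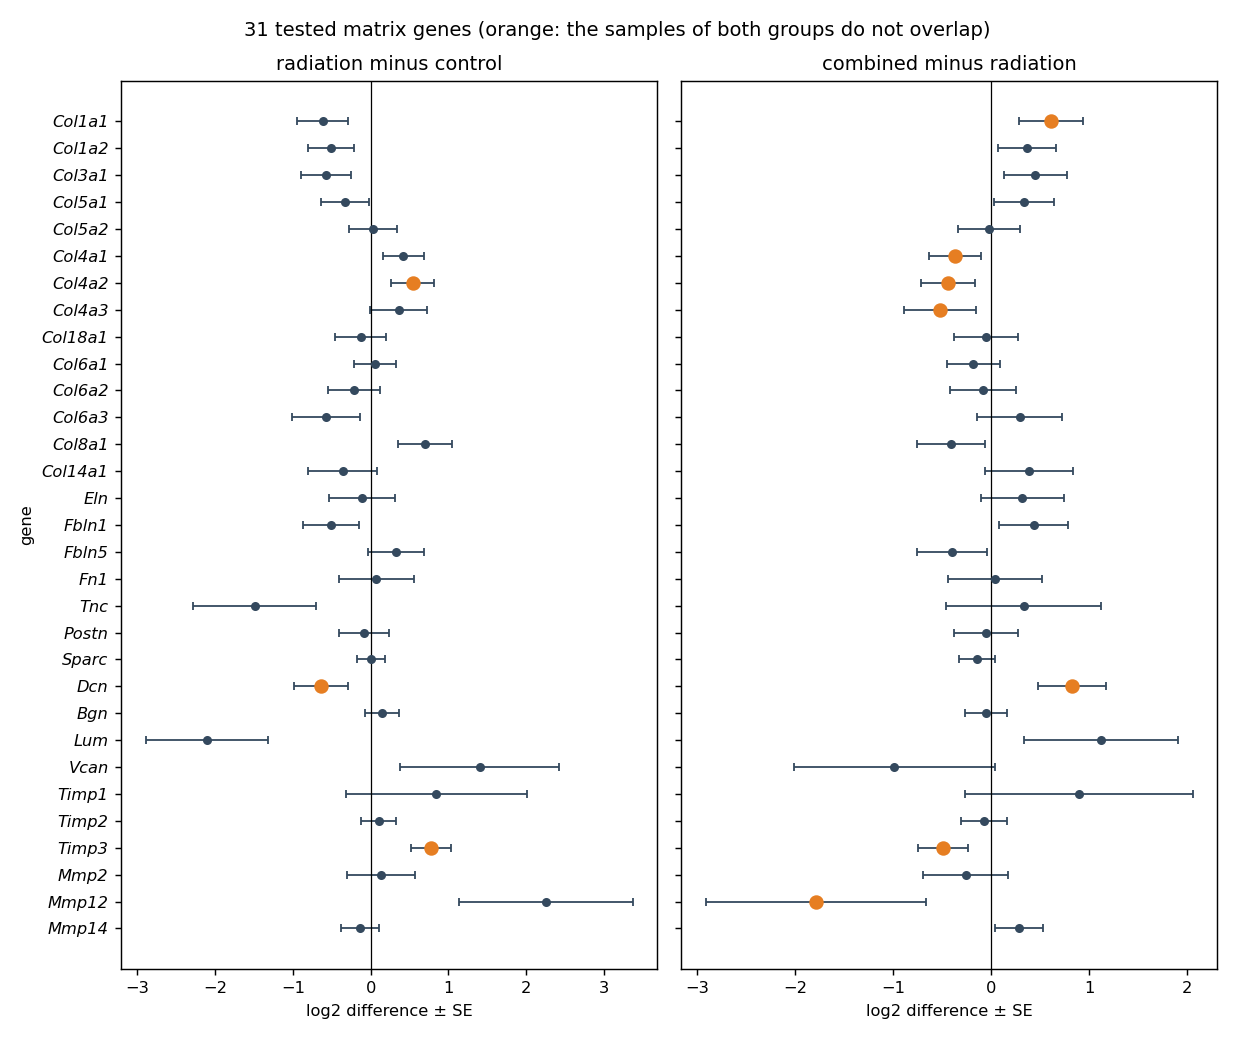
Log2 differences with their standard errors from limma for 31 tested matrix genes, radiation minus control on the left and combined minus radiation on the right. Orange points mark genes whose samples do not overlap between the groups: Col4a2, Timp3 and Dcn on the left, and Col1a1, Col4a1, Col4a2, Col4a3, Dcn, Timp3 and Mmp12 on the right. No adjusted p reached 0.05.

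For the single genes, values are given in order of replicate. Fibrillar collagens form the cables of the interstitium. Col1a1 (Entrez gene 12842), a chain of collagen I, read 10.58, 11.38 and 11.01 on the control arrays, 9.56, 10.87 and 10.69 on the radiation arrays, 11.13, 10.95 and 10.88 on the combined arrays and 10.77, 10.62 and 10.75 on the simvastatin arrays. Radiation 1 was 1.01 or more below every other array, and the other radiation arrays lay among the controls. The difference was -0.62 ± 0.33 (SE) for radiation minus control and 0.61 ± 0.33 for combined minus radiation (limma adjusted p = 0.751 and 0.835). Without the 3 arrays against their labels the values were -0.61 and 0.66, leaving out only radiation 1 gave -0.21 and 0.21, and leaving out control 3 and radiation 1 gave -0.20 and 0.21. Its groups did not overlap in the second comparison, since 10.88, the lowest combined value, stood just above 10.87.

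Col3a1, the chain of collagen III, read 14.12, 14.58 and 14.22 on the control arrays, 12.81, 14.17 and 14.20 on the radiation arrays, 14.26, 14.23 and 14.04 on the combined arrays and 14.05, 13.93 and 13.99 on the simvastatin arrays. Here too radiation 1 stood apart, and all other arrays lay within 0.64 of each other. Radiation minus control was -0.58 ± 0.32 and combined minus radiation 0.45 ± 0.32, but without radiation 1 these values were -0.12 and -0.0072. The simvastatin samples lay below every control, with a difference of -0.33 ± 0.36 (limma adjusted p = 0.99). Col1a2, the partner chain in collagen I, ranged over 13.46 to 14.06 in controls, 12.39 to 13.61 after radiation, 13.48 to 13.63 in the combined group and 13.40 to 13.54 with simvastatin, and its lowest value was again that of radiation 1. On radiation 1 the median fibrillar collagen was -1.07 from its mean. Lung fibroblast markers (9 of 10 measured) stood there at -0.22 and smooth muscle and pericyte markers (10 of 10) at -0.73, and their part in the collagen values was not tested.

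Collagen V chains start fibrils and limit their width. Col5a1 read 9.48, 10.20 and 9.94 on the control arrays, 8.83, 9.73 and 10.07 on the radiation arrays, 9.81, 9.84 and 9.98 on the combined arrays and 9.86, 9.61 and 9.73 on the simvastatin arrays. The groups overlapped in each comparison, with radiation 1 lowest, and radiation minus control was -0.33 ± 0.31. Without radiation 1 this value turned to 0.026, and combined minus radiation from 0.34 to -0.020. For Col5a2 the values were 11.12, 11.87 and 11.60 on the control arrays, 10.90, 11.95 and 11.84 on the radiation arrays, 11.85, 11.52 and 11.25 on the combined arrays and 11.32, 11.73 and 11.20 on the simvastatin arrays. Its group means were within 0.066 of each other, and groups held the smallest share of variance of any matrix gene. Centring each array on its median left Col1a1, Col1a2 and Col3a1 below control after radiation, at -0.34, -0.23 and -0.30, where the median of all genes moved from 0.084 to 0.36.

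Collagen IV is the network of basement membranes. Col4a2 (Entrez gene 12827) read 12.001, 13.14 and 13.01 on the control arrays, 13.24, 13.31 and 13.22 on the radiation arrays, 12.88, 12.91 and 12.68 on the combined arrays and 12.70, 13.23 and 12.62 on the simvastatin arrays. All radiation arrays were above all controls, but only 0.086 separated 13.22 from 13.14, and every combined array was below every radiation array. On average radiation exceeded control by 0.54 ± 0.27, and combined minus radiation was -0.44 ± 0.27 (limma adjusted p = 0.751 and 0.835). The first value moved most without control 1, when it was 0.19. Without control 3, combined 3 and simvastatin 2 the differences were 0.69 and -0.36.

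Col4a1, whose start site faces that of Col4a2, read 13.23, 14.25 and 13.88 on the control arrays, 14.22, 14.25 and 14.15 on the radiation arrays, 13.91, 14.07 and 13.53 on the combined arrays and 13.62, 14.30 and 13.58 on the simvastatin arrays. Control 2 reached the radiation level, so the first comparison overlapped, with a difference of 0.42 ± 0.27, or 0.14 without control 1. The combined arrays were all below the radiation arrays, with a mean difference of -0.37 ± 0.27 (limma adjusted p = 0.835), or -0.22 without the 3 arrays against their labels. Simvastatin 2 was the highest of all arrays for Col4a1, and for Col4a2 it also lay above simvastatin 1 and 3. The pair thus had the same arrays low (control 1, combined 3, simvastatin 1 and 3). As deposited the tested collagen IV chains were below 0 in 3 of 3 cases for combined minus radiation, where 37.4% of all genes were above 0. After median centring they were at -0.73, -0.80 and -0.88, but centring also moved the median of all genes from -0.092 to -0.45.

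Col4a3 encodes a chain of the mature alveolar and glomerular basement membrane. It read 9.31, 10.93 and 10.59 on the control arrays, 10.72, 10.76 and 10.43 on the radiation arrays, 9.84, 10.33 and 10.18 on the combined arrays and 9.99, 10.60 and 10.29 on the simvastatin arrays. Control 1 was lowest and control 2 highest, so the controls spanned the whole range, and radiation minus control went from 0.36 ± 0.37 to -0.12 without control 1. The combined arrays lay below the radiation arrays, with a difference of -0.52 ± 0.37 (limma adjusted p = 0.835), or -0.55 without the 3 arrays against their labels, and the margin was 0.097 between 10.43 and 10.33. Of 13 laminins and basement membrane linkers, Lamb3 and Npnt were also lower on every combined array than on any radiation array. The rest of that list overlapped, and 13.5% of all genes lay apart downward. Lamb3, a chain of the epithelial laminin of hemidesmosomes, was at -0.75 ± 0.42, and Npnt, a basement membrane ligand of alveolar integrins, at -0.60 ± 0.31. Alveolar type 1 markers had a median of -0.22 in the same comparison, with 8 of 8 below 0, and alveolar type 2 markers -0.24, with 6 of 7 below 0. Their part in the collagen IV values was not tested.

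Collagens XV and XVIII sit at the outer face of basement membranes. Col18a1, the precursor of endostatin, read 7.44, 8.21 and 8.21 on the control arrays, 7.17, 8.09 and 8.22 on the radiation arrays, 7.46, 7.94 and 7.92 on the combined arrays and 7.66, 7.75 and 7.80 on the simvastatin arrays. Radiation 1 was lowest, control 1 and combined 1 came next, and no comparison separated its groups. Col15a1 lay between 2.78 to 5.48, mostly below the filter, and was not tested.

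Collagen VI makes beaded filaments around cells. Col6a2 read 11.45, 12.41 and 12.03 on the control arrays, 10.996, 12.24 and 12.01 on the radiation arrays, 11.44, 11.71 and 11.85 on the combined arrays and 11.87, 11.63 and 11.81 on the simvastatin arrays. It was highest on control 2 and lowest on radiation 1, and combined minus control was -0.30 ± 0.33. Col6a1 ranged from 11.41 to 12.41 and Col6a3 from 10.34 to 12.57 over the arrays, each with control 2 at the top, and radiation 1 was the lowest for Col6a3 alone of this pair. Col8a1, a short-chain collagen of vessel walls, read 7.92, 8.02 and 8.96 on the control arrays, 8.78, 9.01 and 9.22 on the radiation arrays, 8.18, 8.76 and 8.86 on the combined arrays and 9.13, 8.24 and 9.20 on the simvastatin arrays. Controls 1 and 2 were the lowest of all arrays while control 3 lay within the radiation range. Radiation minus control was 0.70 ± 0.35 (limma adjusted p = 0.751), or 1.04 without the 3 arrays that went against their labels. Col14a1, a collagen that bridges fibrils, read 9.76, 10.16 and 9.45 on the control arrays, 8.36, 10.20 and 9.73 on the radiation arrays, 9.29, 10.11 and 10.07 on the combined arrays and 10.11, 9.56 and 10.03 on the simvastatin arrays. Radiation 1 stood 0.93 below the next array, and the other 11 spanned 0.91.

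Elastin is the rubber-like core of elastic fibres. Eln (Entrez gene 13717) read 10.16, 10.44 and 11.03 on the control arrays, 10.02, 10.15 and 11.13 on the radiation arrays, 10.26, 10.35 and 11.64 on the combined arrays and 11.66, 11.25 and 11.63 on the simvastatin arrays. The simvastatin arrays were all above the controls, and the highest values were those of the near-identical trio of combined 3, simvastatin 1 and simvastatin 3. Simvastatin minus control was 0.91 ± 0.47 (limma adjusted p = 0.99), and 1.35 without the arrays against their labels, when simvastatin rested on 1 sample. Of 31 genes Eln alone stood apart upward here, and Lum and Col3a1 downward, beside 3.36% and 7.96% of all genes. At an unadjusted p under 0.05, 1 gene was lower and 0 higher, where 1.23% and 0.612% of all genes were, and 17 of 31 differences were above 0, against 49.6%. Smooth muscle and pericyte markers stood at 0.53, -0.64 and 0.49 on the simvastatin arrays, 0.55 on combined 3 and -0.34, -0.11 and 0.11 on the controls. Their part in Eln was not tested.

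Fibulins anchor elastin to cells and microfibrils. Fbln1 read 9.35, 10.01 and 9.58 on the control arrays, 8.52, 9.67 and 9.22 on the radiation arrays, 9.14, 9.98 and 9.59 on the combined arrays and 9.68, 8.87 and 9.69 on the simvastatin arrays. Radiation 1 and simvastatin 2 were lowest, and radiation minus control was -0.51 ± 0.36. Fbln5, needed for elastic fibre assembly, ranged over 11.05 to 12.43 in controls, 11.92 to 12.60 after radiation, 11.42 to 12.15 in the combined group and 12.06 to 12.22 with simvastatin. Control 1 and combined 1 were its low arrays.

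**Figure D4:**
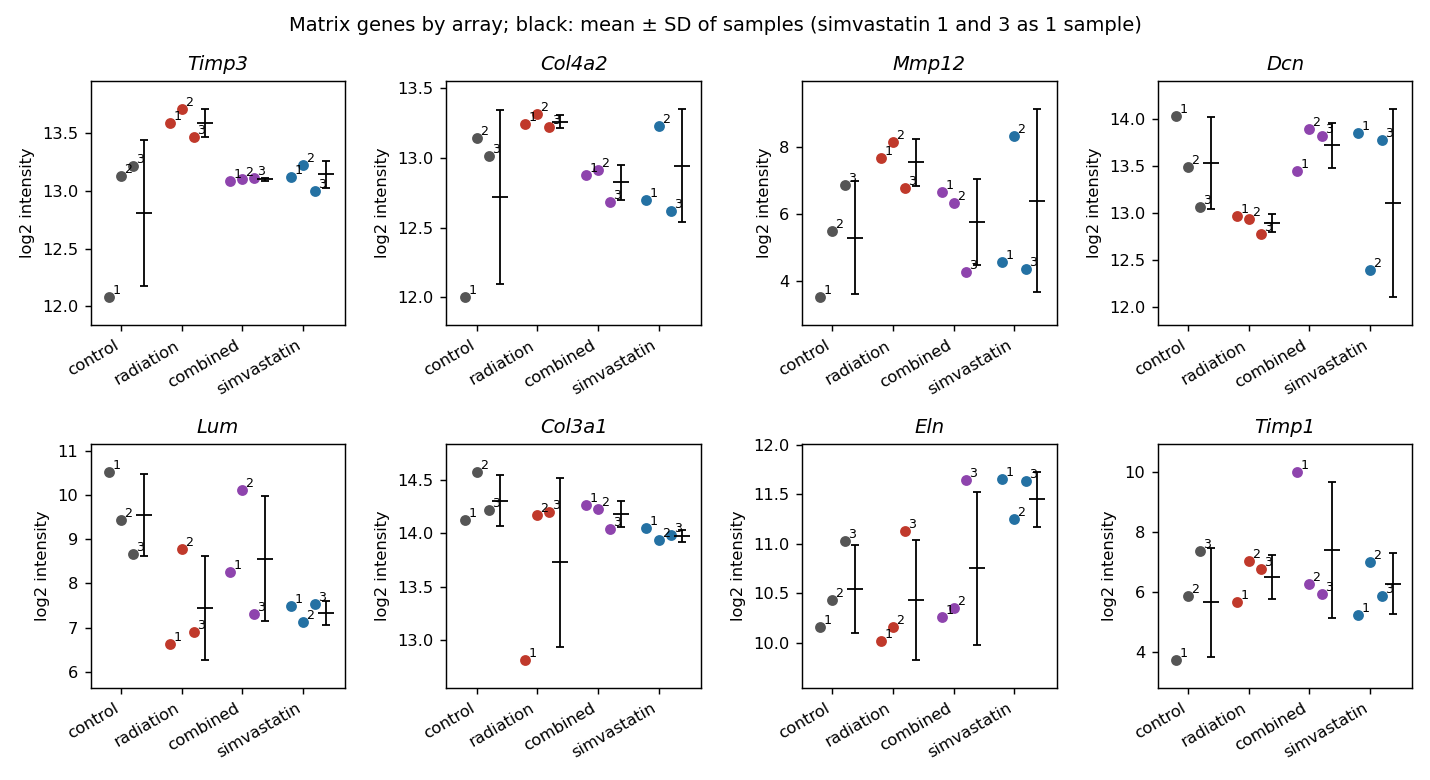
Log2 intensity of 8 matrix genes on each array, with the replicate number beside each point. Black bars give the mean and SD of samples (n = 3, or 2 for simvastatin, where arrays 1 and 3 count as 1 sample). Radiation arrays lie above every control for Timp3 and Col4a2 and below every control for Dcn, and Lum, Col3a1 and Timp1 each have single arrays far from the rest of their group.

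Fibronectin is the adhesive scaffold on which collagen is laid down. Fn1 read 11.92, 12.68 and 12.32 on the control arrays, 12.35, 12.38 and 12.41 on the radiation arrays, 12.89, 12.87 and 11.49 on the combined arrays and 11.50, 13.24 and 11.38 on the simvastatin arrays. The trio of combined 3, simvastatin 1 and simvastatin 3 was lowest, at 11.50 or less, and simvastatin 2 was highest. The group means therefore nearly coincided: radiation minus control was 0.072 ± 0.48 and simvastatin minus control 0.033 ± 0.54, but the latter was -0.86 without the arrays against their labels. Tnc, the tenascin of wound margins, read 9.85, 8.16 and 7.71 on the control arrays, 5.45, 7.90 and 7.90 on the radiation arrays, 8.16, 7.44 and 6.65 on the combined arrays and 6.59, 7.87 and 6.53 on the simvastatin arrays. Control 1 was highest and radiation 1 lowest, 4.40 log2 units apart. Radiation 2 and radiation 3, both at 7.90, lay between control 2 and control 3. Radiation minus control was -1.49 ± 0.79 for Tnc. The difference was -1.36 for simvastatin minus control and -1.16 for combined minus control (limma adjusted p = 0.99 and 0.995). Control 1, the highest array, enters each of these differences. Sparc, a collagen chaperone outside the cell, read 13.60, 14.36 and 14.22 on the control arrays, 13.91, 14.15 and 14.13 on the radiation arrays, 13.91, 13.92 and 13.93 on the combined arrays and 13.86, 14.02 and 13.78 on the simvastatin arrays. Apart from control 1 at 13.60, its arrays lay within 0.58 of each other. Postn, a collagen-binding product of fibroblasts, ranged from 13.09 to 14.32, with radiation 1 lowest and control 2 highest.

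Small proteoglycans regulate the spacing of collagen fibrils. Dcn (Entrez gene 13179) read 14.04, 13.49 and 13.07 on the control arrays, 12.97, 12.94 and 12.79 on the radiation arrays, 13.45, 13.90 and 13.82 on the combined arrays and 13.85, 12.40 and 13.78 on the simvastatin arrays. The radiation arrays were lower than every control and every combined array, and simvastatin 2 was lower still. The differences were -0.64 ± 0.34 for radiation minus control and 0.83 ± 0.34 for combined minus radiation (limma adjusted p = 0.751 and 0.835). The margin between control 3 and radiation 1 was 0.10, and without the arrays against their labels the differences were -0.87 and 0.78. With any 1 array left out they kept their signs, over -0.87 to -0.38 and 0.74 to 0.96. Adipose markers (5 of 8 measured) stood at 1.93, -3.76 and 0.70 in controls, -0.52, -0.84 and -0.69 after radiation, 2.02, 1.97 and 0.34 in the combined group and 0.28, -1.62 and 0.20 with simvastatin. Their part in Dcn was not tested.

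Lum, encoding lumican, read 10.53, 9.44 and 8.67 on the control arrays, 6.63, 8.78 and 6.91 on the radiation arrays, 8.26, 10.11 and 7.31 on the combined arrays and 7.50, 7.13 and 7.54 on the simvastatin arrays. Control 1 and combined 2 exceeded 10, and radiation 1 and 3 were below 7, a spread of 3.89. Radiation minus control was -2.11 ± 0.79 (limma adjusted p = 0.751), with radiation 2 inside the control range, and -2.54 without the arrays against their labels. All simvastatin arrays lay below every control, by a mean difference of -2.22 ± 0.88 (limma adjusted p = 0.99), or -2.47 without those arrays. For the interaction, Lum was at 3.34 ± 1.18 and Dcn at 1.25 ± 0.52 (limma adjusted p = 0.882 for both). They were the 2 of 31 matrix genes higher at an unadjusted p under 0.05, where 1.88% of all genes were, and 0 of 31 were lower, where 1.37% were. Above 0 in the interaction were 17 of 31 matrix genes, against 42.7% of all genes. Without the arrays against their labels these values were 4.21 and 0.73. The next in order of p were Timp3 at -0.82 ± 0.39, Col1a1 at 0.92 ± 0.49 and Mmp12 at -2.90 ± 1.68. Squamous epithelium markers stood at 5.26, 4.61 and -1.52 in controls, 2.53, -2.76 and -3.20 after radiation, 2.52, 5.30 and -3.12 in the combined group and -3.23, -3.26 and -3.15 with simvastatin, and their part in Lum was not tested.

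Bgn, the close relative of decorin, lay at 13.11 to 14.10 in controls, 13.74 to 13.87 after radiation, 13.60 to 13.83 in the combined group and 13.77 to 13.999 with simvastatin, with control 1 lowest and control 2 highest. Versican, the large proteoglycan of provisional matrix, had a wide range. Vcan lay at 5.80 to 7.49 in controls, 7.17 to 9.16 after radiation, 4.97 to 8.75 in the combined group and 5.73 to 8.88 with simvastatin. Radiation 1, simvastatin 2 and combined 1 were above 8, so that the lowest array for fibrillar collagens, radiation 1, was the highest for Vcan. Its mean was higher after radiation by 1.40 ± 1.03 (limma adjusted p = 0.751).

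Timp3 (Entrez gene 21859) read 12.08, 13.13 and 13.22 on the control arrays, 13.59, 13.71 and 13.47 on the radiation arrays, 13.09, 13.11 and 13.11 on the combined arrays and 13.12, 13.23 and 12.996 on the simvastatin arrays, or 12.81 ± 0.63 (SD, n = 3) in controls, 13.59 ± 0.12 (n = 3) after radiation, 13.10 ± 0.013 (n = 3) in the combined group and 13.14 ± 0.12 (n = 2) with simvastatin. The radiation arrays were the 3 highest of the 12, and the combined arrays lay within 0.024 of each other. Radiation minus control was 0.78 ± 0.26, the lowest p among matrix genes, and combined minus radiation -0.49 ± 0.26 (limma adjusted p = 0.751 and 0.835). Control 1 lay 0.92 or more below every other array, and without it the first difference was 0.42. Without control 3, combined 3 and simvastatin 2 the values were 0.99 and -0.49. The other 3 probe sets of Timp3 gave 0.82, 1.18 and 1.03 for radiation minus control, and -0.51, -1.07 and -1.14 for combined minus radiation. Endothelial markers had a median of 0.33 in radiation minus control, with 8 of 10 above 0, where 60.4% of all genes were. By array they stood at -0.94, 0.49 and -0.30 in controls and -0.089, -0.22 and 0.40 after radiation, so control 1 was lowest here too. Their part in Timp3 was not tested.

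Timp1, a secreted inhibitor that inflamed tissue makes, read 3.73, 5.86 and 7.35 on the control arrays, 5.67, 7.03 and 6.76 on the radiation arrays, 9.99, 6.24 and 5.93 on the combined arrays and 5.24, 6.9999 and 5.85 on the simvastatin arrays. Combined 1 stood alone at 9.99 and control 1 at 3.73, and no groups separated. Combined minus control was 1.74 ± 1.16 (limma adjusted p = 0.995). No matrix gene stood apart in combined minus control, where 2.67% of all genes did upward and 3.87% downward. At an unadjusted p under 0.05 none did either, where 1.3% of all genes were higher and 1.52% lower, and 16 of 31 differences were above 0, against 50.5%. Macrophage markers (10 of 10 measured) were also highest on combined 1, at 0.92, and their part in Timp1 was not tested. Timp2, which both inhibits MMPs and helps to activate MMP2, read 13.02, 13.91 and 13.87 on the control arrays, 13.68, 13.56 and 13.87 on the radiation arrays, 13.48, 13.56 and 13.84 on the combined arrays and 13.95, 13.64 and 13.91 on the simvastatin arrays. It lay within 0.47 on 11 of 12 arrays, and control 1 was lower.

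Mmp12 (Entrez gene 17381), the elastase that macrophages secrete, read 3.51, 5.47 and 6.86 on the control arrays, 7.68, 8.16 and 6.77 on the radiation arrays, 6.64, 6.33 and 4.27 on the combined arrays and 4.56, 8.33 and 4.34 on the simvastatin arrays. Simvastatin 2 lay far above the others of its group, and combined 3 far below its group. Control 3 was the highest control, but control 1 lay further below control 2 than control 3 lay above it. Control 1, combined 3, simvastatin 1 and simvastatin 3 read below 4.85, the filter on low values. The mean difference was 2.25 ± 1.12 for radiation minus control and -1.79 ± 1.12 for combined minus radiation (limma adjusted p = 0.751 and 0.835). Without control 3, combined 3 and simvastatin 2 the differences were 3.05 and -1.05, and simvastatin minus control went from 1.11 to -0.040. Macrophage markers stood at -0.25, -0.043 and -0.21 in controls, 0.15, 0.32 and -0.47 after radiation, 0.92, 0.39 and -0.24 in the combined group and -0.23, 0.055 and -0.37 with simvastatin. Their part in Mmp12 was not tested.

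Mmp14, a membrane-bound collagenase, read 10.16, 10.60 and 10.68 on the control arrays, 10.16, 10.001 and 10.87 on the radiation arrays, 10.72, 10.45 and 10.73 on the combined arrays and 10.62, 10.43 and 10.68 on the simvastatin arrays. Its arrays lay within 0.87 of each other, and no comparison separated its groups. Mmp2, the gelatinase that MMP14 activates, ranged over 10.81 to 11.43 in controls, 10.28 to 12.16 after radiation, 10.75 to 11.44 in the combined group and 10.59 to 11.47 with simvastatin. The radiation arrays held both its lowest and its highest value.

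Other genes of matrix assembly were read from lists chosen by function, and 0 of their members passed limma in radiation minus control or combined minus radiation. Of 17 collagen processing enzymes 14 lay above 0 after radiation and 4 above 0 for combined minus radiation, with medians of 0.26 and -0.29, where 60.4% and 37.4% of all genes lay above 0. Control 1 was the lowest control for 17 of 17, and for 5806 of all 11602 genes. Without it 7 of 17 lay above 0 after radiation, with a median of -0.033, against 52.7% of all genes. P4ha2, a prolyl hydroxylase that lets the triple helix form, read 8.23, 9.41 and 10.02 on the control arrays, 10.57, 10.46 and 10.21 on the radiation arrays, 9.87, 9.51 and 9.99 on the combined arrays and 10.02, 9.85 and 10.02 on the simvastatin arrays. Its radiation arrays were above every control and above every combined array, with differences of 1.19 ± 0.38 and -0.62 ± 0.38, the first 0.69 without control 1. Plod1, a lysyl hydroxylase, was at 0.97 ± 0.46 after radiation (0.45 without control 1), and P3h2, a prolyl 3-hydroxylase, at -0.71 ± 0.38 for combined minus radiation. Of 13 laminins and linkers 12 lay above 0 after radiation, with a median of 0.28, and 3 above 0 for combined minus radiation, with a median of -0.17. Without control 1, the lowest control for 12 of 13, 4 of 13 lay above 0 after radiation, with a median of -0.057. The laminin chain gene Lama5 was at 0.87 ± 0.55 after radiation, or 0.17 without control 1, and the linker gene Nid1 at 0.40 ± 0.26, or 0.23.

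Of 16 further proteases and inhibitors 14 lay above 0 after radiation, with a median of 0.42, and 10 without control 1, with a median of 0.16. For this and the following lists, 60.4% of all genes lay above 0 after radiation and 52.7% without control 1. The share for combined minus radiation was 37.4%. Ctsk, a collagen-cutting cathepsin, was at 1.02 ± 0.53 there (0.49 without control 1) and -0.93 ± 0.53 for combined minus radiation, and Adam8, a leukocyte sheddase, at 0.90 ± 0.43 after radiation. Adamts5, an aggrecanase, was at 0.77 ± 0.49 for combined minus radiation. It read 8.84, 8.55 and 8.45 after radiation and 9.10, 8.91 and 10.15 in the combined group. The highest of these was combined 3, near the 10.08 and 10.05 of simvastatin 1 and 3. Of 13 further collagens 9 lay above 0 after radiation and 2 without control 1. Col8a2 was at 1.26 ± 0.66 after radiation (0.53 without control 1) and Col5a3 at -1.24 ± 0.70. For combined minus radiation Col5a3 was at 1.55 ± 0.70 and the epithelial collagen gene Col17a1 at 2.65 ± 1.52. Col5a3 read 5.14, 4.57 and 4.996 in controls, 3.40, 2.41 and 5.17 after radiation and 5.36, 5.06 and 5.22 in the combined group. Col17a1 read 4.86, 3.73 and 3.67 after radiation and 9.01, 8.42 and 2.77 in the combined group. Squamous epithelium markers stood at 2.52, 5.30 and -3.12 in that group, and their part in Col17a1 was not tested. Below the filter were Col5a3 on control 2, radiation 1 and radiation 2, and Col17a1 on radiation 2, radiation 3 and combined 3. Of 13 further elastic fibre genes 8 lay above 0 after radiation and 4 without control 1, with Efemp1 at 0.61 ± 0.28 (0.28 without control 1) and Fbln2 at -0.90 ± 0.58 (-0.54), and in combined minus radiation Fbln2 was at 1.14 ± 0.58 and Ltbp1, which binds latent TGF-beta, at -0.37 ± 0.35. Of 20 further glycoproteins and proteoglycans 11 lay above 0 after radiation and 7 without control 1, with Ogn at 0.42 ± 0.25 (0.23 without control 1) and Tnn at 1.66 ± 0.995 (0.44), and 10 for combined minus radiation, with Smoc1 at 1.80 ± 0.83 and Smoc2 at 0.80 ± 0.58. Each adjusted p of these genes was 0.751 or more in the limma fit.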

How the data were processed

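The deposited values are log2 intensities on Affymetrix arrays, for which the submitters' processing notes name MAS5 and GCRMA; their versions, background settings and scaling were not given in any source used. Of 45101 probe sets, 64 controls were left out, 34945 carried 1 gene symbol in the platform annotation, 932 several and 9160 none. Probe sets had to exceed log2 4.85, the median over the table, on 3 or more of the 12 arrays, and the brightest on average represented its gene (11602 genes). Array medians ran from 4.42 to 5.12, and values were used as deposited. The number of arrays limits the precision. limma 3.58.1 in R 4.3.3 fitted the 4 group means to 11 samples (lmFit, eBayes with a trend), two-sided, with Benjamini-Hochberg adjustment over all genes and a threshold of 0.05, and was tested on simulated data. SE is that of a log2 difference. The members and lists were chosen with earlier results of these data known. Values on every array are given for the 5 matrix genes of lowest p in each comparison, those whose groups do not overlap, and those whose probe sets disagree in sign; of the other matrix lists, the 2 genes of lowest p in radiation minus control and in combined minus radiation are named. Alternatives covered sample counting, scaling, filter, probe set choice, weights, moderation, a replicate block and arrays left out, with control 3 and radiation 1 left out added after seeing the data.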

Additional observations from a re-analysis of the deposited data

How the results depend on the processing

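The settings were followed for 14 matrix genes, the 5 of lowest p in each comparison and those whose groups did not overlap, which gave 29 differences. Much of the agreement between settings was fixed in advance. Leaving out an array outside a comparison cannot change its difference, and these genes were chosen by p or overlap in the same data. Over 23 other settings 661 of their 667 values kept their direction and their side of the threshold, and 2 passed it. The 4 that turned were Dcn in simvastatin minus control, at 0.050 without control 3, combined 3 and simvastatin 2 and at 0.28 without simvastatin 2, and Timp3 without control 1, at -0.030 for simvastatin minus control and -0.071 for combined minus control. With any 1 array left out, Timp3 ran over -0.030 to 0.54 and -0.071 to 0.50 in these comparisons, highest without control 3, and Dcn over -0.66 to 0.28 in simvastatin minus control, lowest without control 3. Array quality weights called 1241 genes for radiation minus control, 1172 for combined minus radiation and 43 for combined minus control, where 0 were called as deposited, and among them 4, 1 and 0 matrix genes. These were Timp3 at 0.52, Col1a1 at -1.21, Col1a2 at -1.12 and Col6a3 at -1.52 in the first comparison and Timp3 at -0.52 in the second, with weights from 0.16 for control 1 to 3.54 for control 2. With those weights the median matrix gene moved to -0.40 for radiation minus control, -0.33 for simvastatin minus control and 0.59 for the interaction. Without control 3, combined 3 and simvastatin 2, 9 genes passed for radiation minus control and 2 for combined minus control, none of them a matrix gene. Centring on array medians moved the median matrix gene to -0.40 for combined minus radiation (all genes -0.45) and -0.35 for the interaction (all genes -0.45), and in radiation minus control the median of all genes went from 0.084 to 0.36. Leaving out control 3, radiation 1 and radiation 2 moved the interaction median to -0.36. The cause of these shifts was not tested. Over all 31 tested matrix genes many more differences turned when 1 array was left out, in 17 genes for radiation against control, 17 for combined against radiation, 21 and 25 for simvastatin and combined against control, and 11 for the interaction. Leaving out control 3 and radiation 1, which was chosen after seeing the data, called 1 gene for radiation minus control and no matrix gene in any comparison. With 1 array left out at a time the medians ran over -0.23 to 0.18 for radiation minus control, -0.22 to 0.12 for combined minus radiation, -0.22 to 0.21 for simvastatin minus control, -0.23 to 0.17 for combined minus control and -0.22 to 0.22 for the interaction. In the same settings 0 to 1 genes passed for radiation minus control, for combined minus control and for the interaction, in each case without control 3, and no matrix gene did. Whether the replicate numbers pair the samples was not settled. Deviations were correlated over 0.1 in 8 of 18 same-numbered pairs (range -0.26 to 0.41), but pairs of unlike number were not compared. A fit on 12 arrays with the replicate number as a block called 0 genes, and its medians were 0.00051, -0.049, -0.086, 0.0063 and 0.094 in the order above.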

Other observations

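Several matrix genes were read by more than 1 probe set above the filter, and the probe sets did not always agree. Of 21 such genes 17 had 1 sign on all probe sets in radiation minus control, 18 in combined minus radiation, 15 in simvastatin minus control, 14 in combined minus control and 17 in the interaction. For fibronectin the second probe set of Fn1 read 6.56, 8.32 and 5.59 on the control arrays, 5.08, 4.16 and 9.37 on the radiation arrays, 9.25, 8.90 and 7.98 on the combined arrays and 8.06, 9.09 and 8.21 on the simvastatin arrays. It was lowest on control 3, radiation 1 and radiation 2, the arrays set apart by the first principal component, and its combined minus radiation value was 2.51 where the brighter probe set gave 0.040. The 2 probe sets were therefore apart by more than 2 log2 units in the same comparison, and what each detects was not tested.

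Versican also had a second probe set above the filter. It read 2.66, 2.66 and 5.03 on the control arrays, 6.87, 2.92 and 2.66 on the radiation arrays, 6.14, 3.12 and 2.68 on the combined arrays and 2.14, 6.26 and 2.07 on the simvastatin arrays. Radiation 1, combined 1, simvastatin 2 and control 3 were the arrays above 5, and the others lay at 3.12 or less. The collagen I chain Col1a1 differed by -0.0062 between combined and control on its brighter probe set and by 0.54 on the other. For Fbln1 the radiation minus control values were -0.51, 0.10 and -0.26 on 3 probe sets, so that the sign of this gene depended on the probe set read. Timp2 had 5 probe sets, which gave 0.00 to 0.17 for radiation minus control and -0.50 to 0.01 for combined minus radiation.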
